A study of Mus musculus with 8 samples.

Results

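The genes described here are the 2 transactivators of the major histocompatibility complex (MHC), Nlrc5 and Ciita, and the 7 genes that encode the DNA-bound complex on which they act: Rfx5, Rfxank and Rfxap, which form RFX, the activator Creb1, and Nfya, Nfyb and Nfyc, which form NF-Y. They were taken by symbol, and each matched 1 row among the 42687 genes of the count table. All 9 passed the filter on low counts and were among the 15197 genes tested. Without the ATEV libraries 8 of the 9 would have passed, all but Ciita.

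The proteins work as a unit called the MHC enhanceosome. RFX, CREB and NF-Y bind neighbouring boxes in the promoters of antigen presentation genes and are made in most cell types. NLRC5 and CIITA do not bind DNA themselves. They dock on the assembled complex and recruit chromatin modifiers, NLRC5 mainly at MHC class I genes and CIITA mainly at MHC class II genes. Ciita is normally transcribed in professional antigen-presenting cells, and both transactivator genes are inducible by interferon gamma in other cells.

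RNA was sequenced from 1 cultured clone of poorly immunogenic pancreatic cancer cells. It came from KPCY mice, which carry a conditional mutant allele of Trp53 (Trp53LSL-R172H/+) among other alleles, a Cre driven by the Pdx1 promoter (Pdx1-Cre) that acts in the pancreatic lineage, and a YFP reporter (Rosa26YFP/YFP). The labels give the genotype of all samples as WT. Every group is the same clone, and 2 libraries were made from each of 4 groups. The groups are DNase-treated ATEV (15 µg/mL of ATEVs pretreated with Baseline-ZERO DNase), ATEV (15 µg/mL), NTEV (30 µg/mL) and PBS, which received no vesicles. EVs are extracellular vesicles, membrane particles that cells release. NTEVs derive from T cells that were not activated. ATEVs are read as those of activated T cells, which the labels do not spell out. The ATEV and NTEV doses are read as each carrying 5 µg/mL of EV-DNA. Cells were exposed, harvested and reseeded the next day, and this was done 8 times. Whether replicate libraries stem from different cultures is not stated. The p-values therefore reflect the spread among these particular libraries, which may be technical. In bulk RNA, fewer expressing cells and less RNA per cell cannot be told apart. An exact two-sided permutation test of 2 libraries against 2 cannot go below 0.333, so the p-values below come from edgeR's quasi-likelihood test over all 15197 genes, adjusted over all of them by the Benjamini-Hochberg method with a threshold of 0.05.

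Total counts ran from 34385326 to 52451398 per library. All 10 markers of pancreatic cancer cells (keratins, Epcam, Cdh1 and others) had counts in every library, with a summed level of 8850 to 11817 counts-per-million (CPM). Because T cells express Nlrc5 and B and dendritic cells express Ciita, markers of those cells were read in the same libraries. Of 14 T cell markers, 7 to 10 were at 0 in EV-treated libraries and 6 to 9 in PBS libraries, and Cd2, Cd5 and Cd8a were at 0 in all 8. Trac and Lck had 165 to 332 and 80 to 276 counts in every library, PBS included. The other 12 T cell markers summed to 0.184 and 0.228 CPM in the ATEV libraries, against 0.291 and 0.425 CPM in the PBS libraries. Of 14 B cell and myeloid markers, 6 to 9 were at 0 in each library, and Ms4a1, Itgax, Tyrobp and Adgre1 were at 0 in all 8. Cd68 had 62 to 221 counts in every library. The other 13 summed to 0.605 and 0.772 CPM with DNase-treated ATEVs, 0.897 and 0.753 CPM with ATEVs, 0.508 and 0.597 CPM with NTEVs, and 0.447 and 0.821 CPM with PBS, so ATEV library 2 lay inside the range of the other groups and ATEV library 1 above it. Csf1r had 19 and 9 counts with ATEVs against 1 and 7 counts with PBS, and Spi1 had 1 and 5 counts with ATEVs and 0 in all other libraries. The part of these counts in the results was not tested.

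Nlrc5, the class I transactivator, was high in the ATEV libraries and at 1.34 CPM or less in the others. It had 151 and 109 CPM in the ATEV libraries, 0.508 and 1.34 CPM in the DNase-treated ATEV libraries, 0.137 and 0.821 CPM in the NTEV libraries, and 0.0971 and 0.274 CPM in the PBS libraries. The lowest ATEV library thus stood far above every library of the other groups. Behind these levels were 6572 and 4766 counts with ATEVs, 21 and 54 with DNase-treated ATEVs, 7 and 33 with NTEVs, and 5 and 9 with PBS.

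The Nlrc5 difference between ATEVs and PBS was 752-fold by the fitted model, with a 95% interval of 181 to 3115 (log2 fold change 9.55 ± 0.87 SE, edgeR adjusted p = 0.00231). Relative to NTEVs, the fitted difference was 283-fold (95% interval 78.4 to 1023, edgeR adjusted p = 0.00441). DNase pretreatment of the vesicles went with a lower Nlrc5 level than untreated ATEVs gave, at a log2 fold change of -7.13 ± 0.74 SE (95% interval -8.87 to -5.39, edgeR adjusted p = 0.00923). In each of these comparisons both ATEV libraries lay above both libraries of the other group. The size of each difference depended on single libraries with few counts. The log2 fold change with ATEVs against PBS was 8.87 without PBS library 1 and 10.34 without PBS library 2, and against NTEVs (8.15 in all libraries) it was 7.29 without NTEV library 1 and 9.86 without NTEV library 2. Between DNase-treated and untreated ATEVs it was -6.59 without DNase-treated ATEV library 1 and -8.01 without DNase-treated ATEV library 2. The call against PBS held in all 10 alternative analyses, with edgeR or DESeq2 adjusted p of at most 0.0457. The call against DNase-treated ATEVs was lost without DNase-treated ATEV library 1 (edgeR adjusted p = 0.0999) and without DNase-treated ATEV library 2 (0.0569), over a range from 1.88e-11 to 0.0999 in the 10 alternatives.

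**Figure D1:**
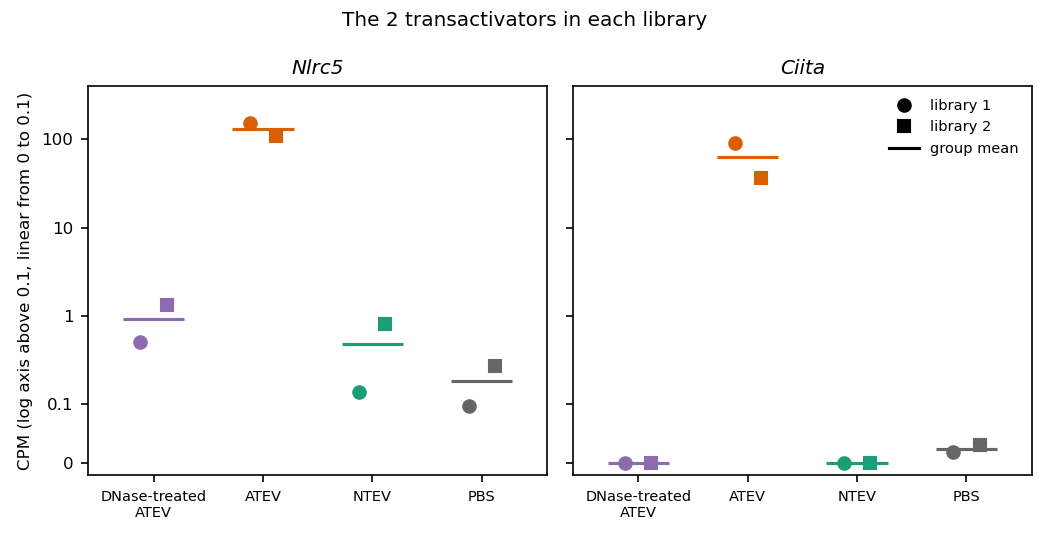
CPM of Nlrc5 (left) and Ciita (right) in each of the 8 libraries, by group, with circles for library 1, squares for library 2 and a bar at the group mean; the axis is logarithmic above 0.1 CPM and linear from 0 to 0.1. Both genes are at 36.6 CPM or more in the ATEV libraries and at 1.34 CPM or less in all other libraries.

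Ciita, the class II transactivator, was detected almost only in the ATEV libraries. It had 90.6 and 36.6 CPM there, from 3942 and 1603 counts. No Ciita count was found in the DNase-treated ATEV or NTEV libraries, and each PBS library had 1 count. At these depths 0 counts allow at most 0.0726 and 0.0747 CPM in the DNase-treated ATEV libraries and 0.0586 and 0.0747 CPM in the NTEV libraries (3 counts, counting error only). The groups did not overlap, although the ATEV libraries differed from each other by 2.48 times, more than they did for Nlrc5 (1.39 times).

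Relative to PBS, with 2 counts over the group, the Ciita ratio was 2679 with a 95% exact counting interval of 741 to 22130, and the edgeR adjusted p was 0.00347. Where a group held 0 counts, its pooled count was set to 3 and compared with the pooled ATEV counts. Such a bound covers counting error at the floor only. It leaves out the spread between the ATEV libraries, which differed by 2.48 times. By this bound on pooled counts, Ciita was 1934-fold higher with ATEVs than with NTEVs (edgeR adjusted p = 0.00588). By the same kind of bound, Ciita was 1725-fold lower with DNase-treated ATEVs than with untreated ATEVs (edgeR adjusted p = 0.00923). The call against PBS was lost without PBS library 1 (edgeR adjusted p = 0.0687) and without PBS library 2 (0.0650), and that against DNase-treated ATEVs without DNase-treated ATEV library 1 (0.0566). Over their alternatives the adjusted p ran from 1.31e-21 to 0.0687 against PBS, and from 5.42e-17 to 0.0566 between DNase-treated and untreated ATEVs. In a fit of the ATEV and NTEV libraries alone, the adjusted p was 0.0662 for Ciita (range over alternatives 1.35e-17 to 0.0662) and 0.0519 for Nlrc5 (2.42e-13 to 0.0519).

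Nlrc5 and Ciita were the 2 of the 9 genes that passed in these comparisons. In ATEV against PBS both were higher, where 3.52% of all genes tested were called higher and 1.66% lower, and 21.9% had an unadjusted p under 0.05. In ATEV against NTEV, 1.05% of all genes were called higher, and in DNase-treated against untreated ATEV, 0.579% were called lower. These comparisons share the ATEV libraries. The reads were not necessarily counted by strand, so genes on the opposite strand matter here. The non-coding gene 9330175E14Rik, which overlaps Nlrc5, had 279 and 169 counts with ATEVs and at most 1 count in every other library, and what reads of Nlrc5 contribute to it was not tested. Dexi, which overlaps Ciita, had 837 and 797 counts with ATEVs against 678 and 425 counts with PBS, so its counts were present in libraries in which Ciita was at 0 or 1.

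Among the groups other than ATEV, Nlrc5 differed by less than the test could separate. With DNase-treated ATEVs it was at 0.926 ± 0.591 CPM, against 0.479 ± 0.484 CPM with NTEVs and 0.185 ± 0.125 CPM with PBS (SD, n = 2 each). Both DNase-treated ATEV libraries lay above both PBS libraries, with a log2 fold change of 2.42 ± 0.91 SE (95% interval 0.28 to 4.56, edgeR unadjusted p = 0.0315 and adjusted p = 0.165). In that comparison 2.16% of all genes were called higher and 24.7% had an unadjusted p under 0.05. The adjusted p was 0.00892 when genes with low counts were not filtered out, and from 0.0970 to 0.611 in the other 9 alternatives. Between NTEVs and PBS the libraries overlapped, at 1.41 ± 0.99 SE on the log2 scale (95% interval -0.91 to 3.73, edgeR adjusted p = 0.430), and without NTEV library 2 the direction turned (-0.31). DNase-treated ATEVs and NTEVs also overlapped (1.01 ± 0.77 SE, 95% interval -0.79 to 2.82, edgeR adjusted p = 0.717). In each of the EV-treated groups other than ATEV, and with PBS, library 2 was the higher, by 2.64 times with DNase-treated ATEVs, 6.002 times with NTEVs and 2.82 times with PBS.

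None of the 9 genes passed edgeR in NTEV against PBS, DNase-treated ATEV against PBS or DNase-treated ATEV against NTEV. Before adjustment 0, 3 and 0 of the 9 had a p under 0.05, beside 19.1%, 24.7% and 10% of all genes, and DESeq2 called 0 in each. The shares of all genes called in either direction were 1.11%, 3.01% and 0.0526%. Nlrc5, Rfx5 and Rfxank were the 3 with such a p, in DNase-treated ATEV against PBS. Ciita was at or under the floor in all these groups, so no fold is given for it.

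Rfx5, the RFX subunit that contacts DNA, followed the same order of groups as Nlrc5 on a far smaller scale. It had 32.4 and 27.6 CPM with ATEVs, 23.8 and 27.5 CPM with DNase-treated ATEVs, 19.3 and 23.6 CPM with NTEVs, and 19.1 and 14.4 CPM with PBS. The lowest library of each EV group stood above both PBS libraries. The difference of ATEVs from PBS was 1.79-fold (95% interval 1.28 to 2.48, log2 fold change 0.84 ± 0.20 SE) and did not pass (edgeR adjusted p = 0.0621). It passed with DESeq2 (adjusted p = 0.00390) and without a filter on low counts (0.0216), and over all 10 alternatives the adjusted p ran up to 0.326. With DNase-treated ATEVs Rfx5 was at 1.53-fold of the PBS level (95% interval 1.10 to 2.12, edgeR adjusted p = 0.131) and with NTEVs at 1.28-fold (95% interval 0.92 to 1.77, adjusted p = 0.357). DNase-treated and untreated ATEVs differed by -0.23 ± 0.20 SE on the log2 scale (95% interval -0.70 to 0.25, edgeR adjusted p = 0.778). Its antisense neighbour B230398E01Rik had at most 13 counts in any library.

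Rfxank, the ankyrin-repeat subunit of RFX, was not higher with ATEVs. It had 18.05 and 18.8 CPM with ATEVs, against 18.9 and 17.0 CPM with PBS, and these groups overlapped (log2 fold change 0.04 ± 0.23 SE, 95% interval -0.51 to 0.59, edgeR adjusted p = 0.943). The highest values were those with DNase-treated ATEVs, 21.3 and 31.3 CPM, both above both PBS libraries (0.55 ± 0.23 SE, 95% interval 0.00079 to 1.10, edgeR unadjusted p = 0.0497 and adjusted p = 0.202). With NTEVs it had 18.04 and 24.4 CPM. Nr2c2ap, a gene on the opposite strand that overlaps Rfxank, had 906 to 1870 counts per library, more than Rfxank in 7 of the 8 libraries, so the Rfxank values are uncertain if strand was not used.

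Rfxap encodes the RFX-associated protein, the third subunit. It had 15.9 and 12.3 CPM with DNase-treated ATEVs, against 17.4 and 20.6 CPM with PBS, groups that did not overlap (log2 fold change -0.43 ± 0.19 SE, 95% interval -0.87 to 0.01, edgeR adjusted p = 0.210). With ATEVs it had 18.1 and 17.7 CPM, inside the PBS range (-0.09 ± 0.19 SE, edgeR adjusted p = 0.819), and with NTEVs 16.3 and 15.1 CPM. In these values the 3 subunits that make up RFX did not shift together, with those of Rfxank uncertain. None of their differences passed in the main edgeR fit, while Rfx5 in ATEV against PBS passed with DESeq2 and without a filter on low counts.

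**Figure D2:**
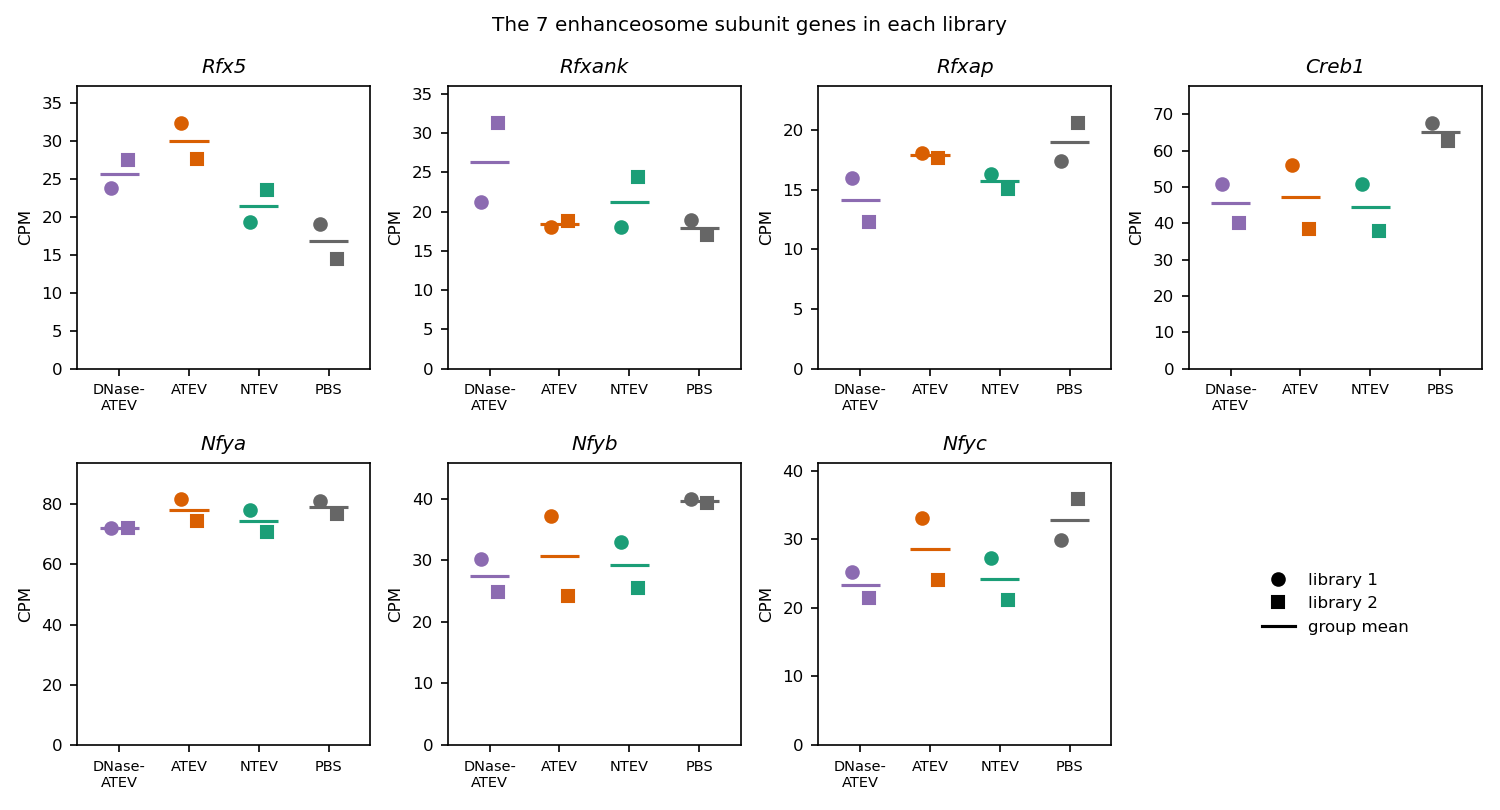
CPM of Rfx5, Rfxank, Rfxap, Creb1, Nfya, Nfyb and Nfyc in each library, by group, on linear axes from 0, with circles for library 1, squares for library 2 and a bar at the group mean. Rfx5 is lowest with PBS, while Creb1 and Nfyb are highest with PBS.

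Creb1, the cyclic AMP response factor that occupies the X2 box, was lower in every EV-treated library than in the PBS libraries. It had 50.9 and 40.1 CPM with DNase-treated ATEVs, 56.1 and 38.3 CPM with ATEVs and 50.9 and 37.9 CPM with NTEVs, against 67.6 and 62.6 CPM with PBS. The log2 fold changes against PBS were -0.52 ± 0.24 SE, -0.46 ± 0.24 SE and -0.55 ± 0.24 SE in that order of groups, with edgeR adjusted p of 0.226, 0.307 and 0.261. These comparisons share the PBS libraries, so their likeness is not independent. Untreated and DNase-treated ATEVs did not separate for Creb1 (DNase-treated over untreated -0.05 ± 0.24 SE, 95% interval -0.61 to 0.50).

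NF-Y is a trimer whose subunits are encoded by Nfya, Nfyb and Nfyc and which binds the CCAAT sequence of the Y box. Nfya, the sequence-specific subunit, varied least of the 9 genes. It had 72.1 and 72.2 CPM with DNase-treated ATEVs, 81.6 and 74.5 CPM with ATEVs, 78.0 and 70.6 CPM with NTEVs, and 81.0 and 76.9 CPM with PBS. Its ATEV difference from PBS was -0.02 ± 0.12 SE on the log2 scale (95% interval -0.30 to 0.27, edgeR adjusted p = 0.953), with a sign that changed with the scaling (0.0094 with RLE size factors).

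Nfyb and Nfyc, the histone-fold subunits, had lower group means in all EV groups than with PBS. Nfyb had 30.2 and 24.8 CPM with DNase-treated ATEVs, 37.2 and 24.2 CPM with ATEVs and 33.0 and 25.6 CPM with NTEVs, against 39.9 and 39.4 CPM with PBS. No EV-treated library reached either PBS library for Nfyb. Nfyc had 25.3 and 21.4 CPM with DNase-treated ATEVs, 33.0 and 24.01 CPM with ATEVs, and 27.3 and 21.2 CPM with NTEVs, against 29.8 and 35.8 CPM with PBS, so that it overlapped PBS only in the ATEV group. The lowest edgeR adjusted p of either gene against PBS was 0.222, for Nfyc with DNase-treated ATEVs (-0.49 ± 0.22 SE).

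In DNase-treated ATEV against PBS, 9 of the 9 genes had groups that did not overlap, counting Ciita with its 2 PBS counts. In the same comparison 60.6% of all 15197 genes did not overlap. In ATEV against PBS 5 of 9 did not overlap, beside 52.5% of all genes, and in NTEV against PBS 6 of 9, again counting Ciita with its 2 PBS counts, beside 59.5%. The count was 4 of 9 in ATEV against NTEV (30% of all genes), 6 of 9 in DNase-treated against untreated ATEV (36.2%) and 1 of 9, Rfx5, in DNase-treated ATEV against NTEV (38.6%). The median log2 fold change of the 9 genes in ATEV against PBS was -0.02, as was that of all genes tested. Library 2 lay below library 1 for Creb1, Nfyb and Nfyc in each of the 3 EV groups.

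**Figure D3:**
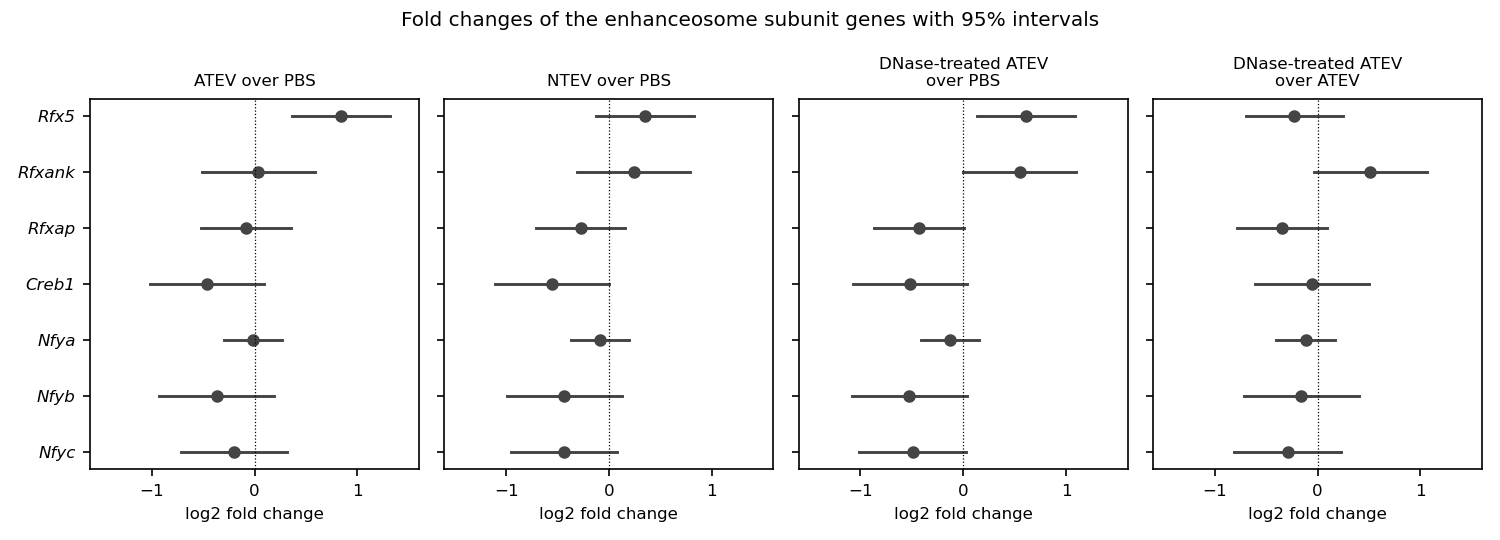
Log2 fold changes (points) with 95% intervals (lines) of the 7 enhanceosome subunit genes in 4 comparisons, from edgeR's model over all 8 libraries, with a dotted line at 0. The interval of Rfx5 in ATEV over PBS runs from 0.36 to 1.31, and no difference shown passed the adjusted threshold.

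Levels of different genes were compared as CPM per kilobase of annotated exon. With PBS the order was Nfyc (11.2 ± 1.44), Nfya (10.8 ± 0.397), Rfxap (8.48 ± 1.00), Nfyb (7.82 ± 0.0729), Creb1 (4.74 ± 0.256), Rfxank (4.52 ± 0.341), Rfx5 (3.05 ± 0.599), Nlrc5 (0.0218 ± 0.0147) and Ciita (0.00261 ± 0.000813) CPM per kb (mean ± SD, n = 2 each). Within that order Nfyc and Nfya, Rfxap and Nfyb, and Creb1 and Rfxank were neighbours whose libraries overlapped. All 7 subunit genes were thus transcribed in the cells that had received no vesicles, while both transactivators were near 0.

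With ATEVs the order changed at the top. Nlrc5 reached 15.3 ± 3.53 CPM per kb, above Nfya at 10.7 ± 0.688, but this order turned with the gene length used. With the longest annotated transcript as the length in place of all exons, Nlrc5 was at 17.1 ± 3.95 and Nfya at 21.1 ± 1.36 CPM per kb with ATEVs. On the length of all exons Ciita, at 6.67 ± 4.01 CPM per kb, overlapped its neighbours Rfxap (7.98 ± 0.130) and Nfyb (6.06 ± 1.82). Rfx5 was at 5.45 ± 0.610, Rfxank at 4.64 ± 0.130 and Creb1 at 3.44 ± 0.919 CPM per kb. With DNase-treated ATEVs Nlrc5 was at 0.109 ± 0.0696 CPM per kb and with NTEVs at 0.0564 ± 0.0570, below all 7 subunit genes in both groups. The longest transcript as the length moved the mean of Nfya over the 8 libraries to 20.5 CPM per kb and that of Creb1 to 6.04, so the order among the 9 genes rests in part on the annotation. By either length both transactivators were below all 7 subunit genes in every group other than ATEV.

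**Figure D4:**
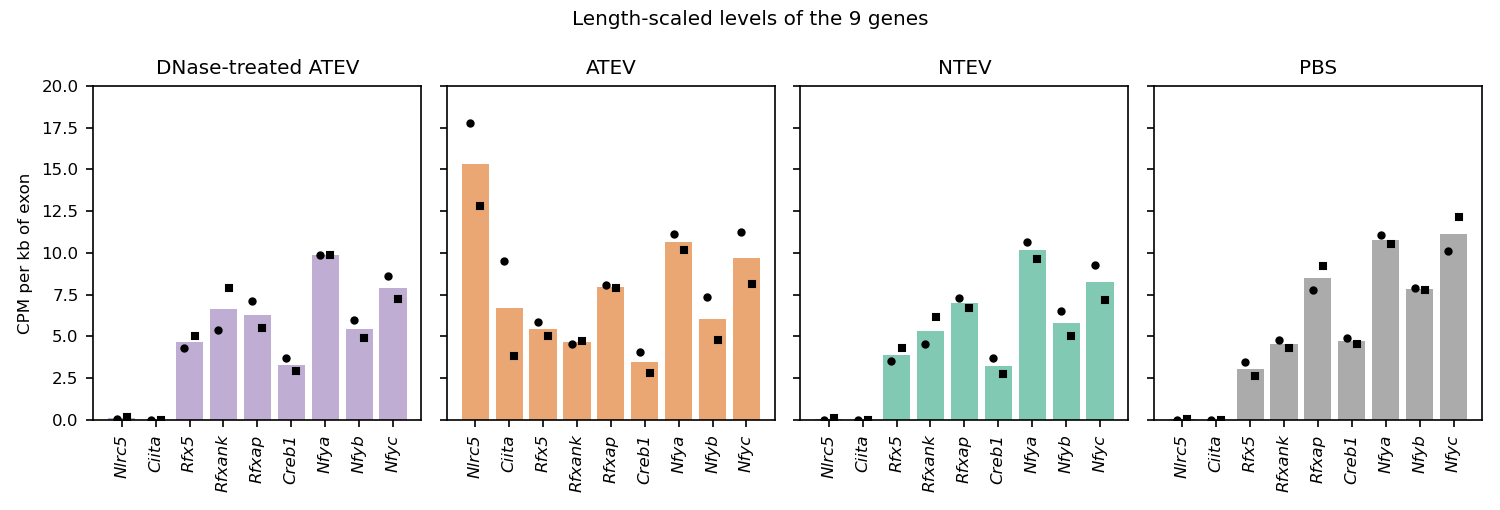
CPM per kilobase of exon for the 9 genes in each group, with bars at the mean of 2 libraries and points for the libraries (circle, library 1; square, library 2). By this length Nlrc5 is the tallest bar with ATEVs (15.3), while by the longest transcript Nfya is higher (21.1 against 17.1), and Nlrc5 is close to 0 in the other panels, where the 7 subunit genes keep levels between 3.05 and 11.2.

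The enhanceosome reads a promoter module made of an X1 box (RFX), an X2 box (CREB) and a Y box (NF-Y). The listed target genes, with Cd74 left out, were searched in the 250 bases before their annotated starts. RefSeq promoter windows on build GRCm38.p6 were used. Motifs were searched on both strands as CCAAT for the Y box, TGACG for the X2 box (part of the cyclic AMP response element) and GTTGCC for the X1 box (part of an RFX site). The interferon elements GAS (TTCNNNGAA) and ISRE core (GAAA, any 2 bases, GAAA) were searched as well. CCAAT was found for 13 of 16 class I targets with a window and for 8 of 8 class II targets, against 33.9% of all 32851 windows. TGACG was found for 9 of 16 class I and 1 of 8 class II targets, against 17.8% of windows, and GTTGCC for 3 of 16 and 2 of 8, against 10.4%. The windows of the class I targets H2-Q10, Psmb8 and Psmb10 held no match to any of these box motifs. GAS was found for 2 of 16 and 1 of 8, against 7.02%, and the ISRE core for 3 of 16 and 0 of 8, against 2.98%. A gene with several windows was counted if any window matched. Of the 9 genes described here 6 have such a window, Nlrc5, Ciita and Rfxap not among them. CCAAT was found for 4 of those 6, Rfx5, Rfxank, Nfya and Nfyc, and TGACG and GAS each for 1, Nfyc. The windows of 2 class I and 2 class II targets are printed here as examples, chosen after the matches were seen, and need not be typical of their lists. They read 5′ to 3′ in the direction of transcription, with matches to these motifs in capitals:
H2-K1 (chr17:34000334-34000583, minus strand): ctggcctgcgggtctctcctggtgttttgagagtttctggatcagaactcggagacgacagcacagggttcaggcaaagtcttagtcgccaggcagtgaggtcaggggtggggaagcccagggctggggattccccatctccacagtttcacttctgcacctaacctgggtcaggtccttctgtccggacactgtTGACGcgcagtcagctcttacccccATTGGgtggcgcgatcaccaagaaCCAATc
H2-D1 (chr17:35262844-35263093, plus strand): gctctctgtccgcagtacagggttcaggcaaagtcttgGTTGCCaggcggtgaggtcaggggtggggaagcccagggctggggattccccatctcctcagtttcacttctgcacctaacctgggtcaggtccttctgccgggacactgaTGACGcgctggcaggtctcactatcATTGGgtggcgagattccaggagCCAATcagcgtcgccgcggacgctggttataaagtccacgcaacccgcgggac
H2-Aa (chr17:34287824-34288073, minus strand): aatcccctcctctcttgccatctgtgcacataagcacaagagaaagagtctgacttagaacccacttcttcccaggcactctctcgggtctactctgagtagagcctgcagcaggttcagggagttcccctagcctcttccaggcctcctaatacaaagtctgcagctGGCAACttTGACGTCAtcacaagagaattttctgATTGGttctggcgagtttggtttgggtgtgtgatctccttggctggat
H2-DMb1 (chr17:34152941-34153190, plus strand): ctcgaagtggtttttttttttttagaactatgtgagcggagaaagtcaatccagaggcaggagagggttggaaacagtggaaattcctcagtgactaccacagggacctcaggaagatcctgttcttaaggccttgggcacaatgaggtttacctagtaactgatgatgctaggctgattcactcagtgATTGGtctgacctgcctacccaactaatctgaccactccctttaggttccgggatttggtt

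In H2-K1 and H2-D1 a TGACG stood 20 bases before an ATTGG (the Y box read on the other strand). H2-Aa also carried GGCAAC, the X1 motif read on the other strand, just ahead of overlapping TGACG matches on both strands. H2-DMb1 held only the ATTGG among these motifs. H2-D1 and H2-K1 each held a further CCAAT closer to the start, and H2-D1 a GTTGCC far upstream. These are letter matches and not measured binding.

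The target genes of class I were high in the libraries in which Nlrc5 was high. Of 21 listed class I genes 17 were tested, and 16 were higher with ATEVs than with PBS (14 of the 17 would have passed the filter without the ATEV libraries; 11 were higher without PBS library 1, 12 without PBS library 2). H2-K1, a class I heavy chain, had 2000 and 2576 CPM with ATEVs against 195 and 190.4 CPM with PBS. Psmb8, a subunit of the immunoproteasome, had 316 and 195 CPM with ATEVs against 0.0971 and 0.0912 CPM with PBS, and Tap1, of the peptide transporter, 347 and 242 CPM with ATEVs against 1.146 and 0.608 CPM with PBS. In ATEV against PBS 3.52% of all genes were called higher. The list's median log2 fold change was 3.57 beside -0.02 for all genes. The exception was H2-T24, at 0.483 and 0.799 CPM with ATEVs against 0.117 and 0.395 CPM with PBS. Against NTEVs 15 of 17 were higher with ATEVs, beside 1.05% of all genes. With DNase-treated ATEVs 14 of 17 were lower than with untreated ATEVs, beside 0.579% of all genes, and the list's median was -3.25.

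Class II targets, which CIITA serves, summed to 1.59 CPM or less in every library outside the ATEV group. Of 10 listed genes 6 were tested, 2 of which would have passed the filter without the ATEV libraries, and all 6 were higher with ATEVs than with PBS and than with NTEVs. Of all genes tested, 3.52% and 1.05% were called higher in these comparisons. H2-Aa, a class II alpha chain, had 111 and 81.5 CPM with ATEVs, 0 and 0.0249 CPM with DNase-treated ATEVs, and 0 in the NTEV and PBS libraries. H2-Ab1, its partner chain, had 163 and 102 CPM with ATEVs and no count in any of the other 6 libraries. H2-DMb1, which helps load class II molecules, had 71.3 and 45.4 CPM with ATEVs against 0.214 and 0.213 CPM with PBS. With genes at 0 counts set to their bound, the median of the 6 was 11.55 on the log2 scale (14.25 as fitted). With DNase-treated ATEVs all 6 were lower than with untreated ATEVs, by a median of -11.73 with bounds (-12.46 as fitted), beside 0.579% of all genes called lower. H2-Oa and H2-Ob, which act mainly in B cells, had at most 2 counts in any library.

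The ATEV libraries also differed from each other in the target genes. ATEV library 1 had the higher Ciita level, by 2.48 times, and the higher level of 5 of the 6 class II genes tested, by 1.37 times (H2-Aa) to 1.76 times (H2-DMa). Cd74, the invariant chain, was lower there (0.831 times). The summed CPM of class II targets was 939 in ATEV library 1 and 832 in ATEV library 2. For class I, Nlrc5 was 1.39 times higher in library 1, while H2-K1 and B2m were lower there (0.776 and 0.780 times) and Tap1 was higher (1.44 times). The summed class I level was 7722 and 8521 CPM in the ATEV libraries, 942 and 1157 CPM in the DNase-treated ATEV libraries, 869.5 and 1163 CPM in the NTEV libraries, and 871 and 925 CPM in the PBS libraries. Class I heavy chain genes are near-identical in part, so their reads may be divided uncertainly.

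**Figure D5:**
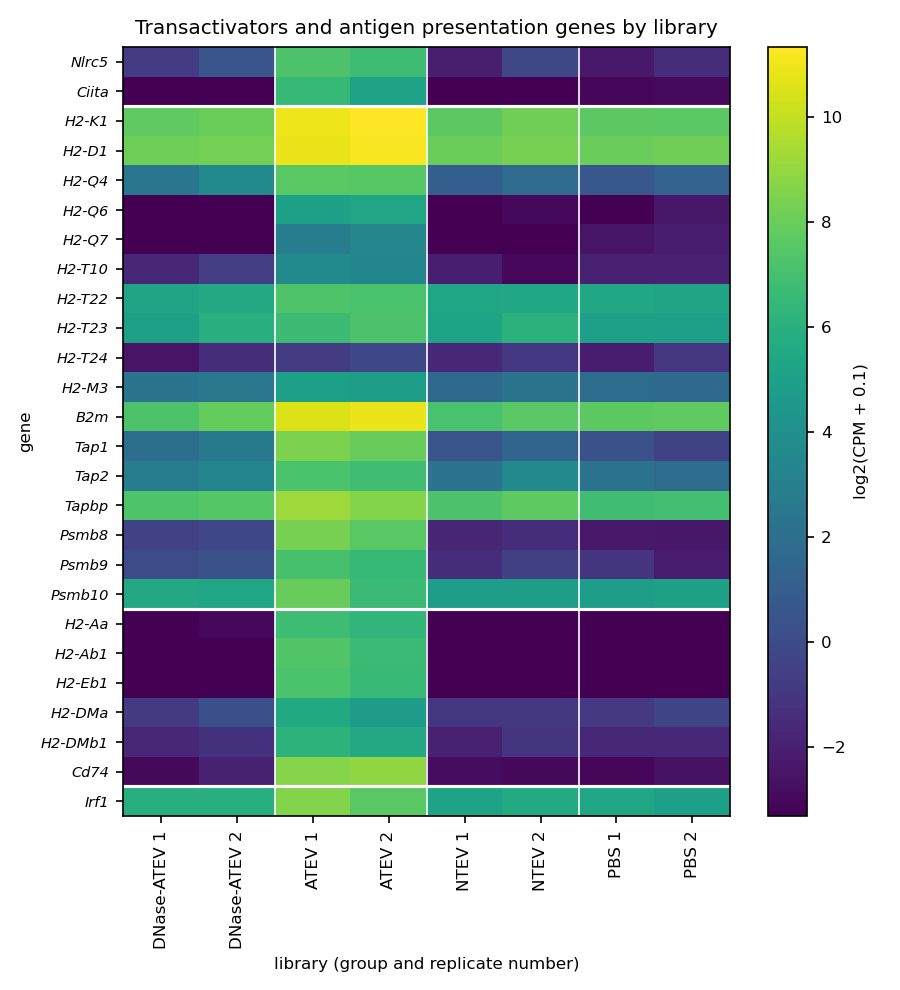
Log2(CPM + 0.1) of Nlrc5 and Ciita, of the 17 class I and 6 class II targets tested, and of Irf1, in each of the 8 libraries; white lines divide the gene groups and the treatment groups, and yellow is high. The ATEV columns are the brightest for every gene shown, and H2-Aa, H2-Ab1 and H2-Eb1 are at the bottom of the scale in nearly all other libraries.

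Among class I targets, differences of DNase-treated ATEVs from PBS were seen at low expression levels. Against PBS 2 of 17 class I genes were higher, beside 2.16% of all genes called higher. These were Psmb8 (0.653 and 0.772 CPM with DNase-treated ATEVs against 0.0971 and 0.0912 CPM with PBS) and Tap1 (3.80 and 5.999 CPM with DNase-treated ATEVs against 1.146 and 0.608 CPM with PBS), with edgeR adjusted p of 0.0284 and 0.0380. The count was 0 in a fit of protein-coding genes alone, 0 without PBS library 1, PBS library 2 or DNase-treated ATEV library 2, 1 without DNase-treated ATEV library 1, and 6 without a filter on low counts. In that comparison 0 of the 6 class II genes passed in edgeR or DESeq2, and 0 had a p under 0.05 before adjustment, beside 24.7% of all genes. Against NTEVs, 0 of 17 class I and 0 of 6 class II genes passed with DNase-treated ATEVs, beside 0.0526% of all genes. Before adjustment 5 class I and 0 class II genes had a p under 0.05 there, beside 10% of all genes, and DESeq2 called 2 and 0.

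Genes of interferon gamma signalling, which lies upstream of both transactivators, were called higher in part with ATEVs. Of 15 listed genes, all tested, 6 were higher than with PBS, beside 3.52% of all genes, and the list's median was 0.63 on the log2 scale beside -0.02 for all genes. Without the ATEV libraries 14 of the 15 would have passed the filter. Irf1, a transcription factor that acts at the Ciita promoter, had 393 and 192 CPM with ATEVs, 57.2 and 58.2 CPM with DNase-treated ATEVs, 36.3 and 50.6 CPM with NTEVs and 40.9 and 30.3 CPM with PBS. It had more in ATEV library 1 than in library 2, by 2.04 times. Socs1, an inhibitor of the pathway, rose by 3.17, Stat2 by 1.90, Irf9 by 1.70 and Irf2 by 0.63 on the log2 scale against PBS. Against NTEVs 2 of the 15 were higher with ATEVs, beside 1.05% of all genes. With DNase-treated ATEVs 2 of the 15 were lower than with untreated ATEVs, beside 0.579% of all genes. Irf1 was among them in both comparisons. The count against NTEVs was 1 without NTEV library 1 or NTEV library 2, and 0 in a fit of those groups alone. Between DNase-treated and untreated ATEVs it was 0 without either DNase-treated ATEV library, 1 without ATEV library 1 and 0 in a fit of those groups alone. The receptor and kinase genes Ifngr1, Ifngr2, Jak1 and Jak2 did not pass in any of the 6 comparisons. The count in ATEV against PBS was 1 without PBS library 1, 1 without PBS library 2 and 3 without ATEV library 1. With DNase-treated ATEVs 1 of 15 passed against PBS, Stat2 (51.0 and 91.0 CPM with DNase-treated ATEVs against 24.7 and 21.0 CPM with PBS, edgeR adjusted p = 0.0498), and it was lost without any one of those 4 libraries and with RLE scaling. In DNase-treated ATEV against PBS 2.16% of all genes were called higher. With NTEVs against PBS, 0 of 17 class I, 0 of 6 class II and 0 of 15 interferon gamma signalling genes passed edgeR, beside 1.11% of all genes. Before adjustment 2, 0 and 4 of them had a p under 0.05 there, beside 19.1% of all genes, and DESeq2 called 0, 0 and 1.

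The genes whose pattern lay nearest to Nlrc5 were found among 10753 protein-coding genes with a mean log2 CPM of at least 1. With hardly any counts outside the ATEV libraries, the class II targets H2-Aa, H2-Ab1 and H2-Eb1 fell below that level. The class I targets Psmb8 and Psmb9, with few counts there, fell below it too, as did Nlrc5 and Ciita themselves. Genes below that level could not be named, so the genes found need not be the nearest of all. The measure was the root mean square difference of log2 CPM, each gene centred on its own mean over the 8 libraries. Among the genes above that level, the 5 nearest were Tgtp1 (0.62), Gbp2 (0.70), Gbp4 (0.70), Tap1 (0.79) and 2210407C18Rik (1.12). For Ciita the same 5 genes came in another order, with larger differences: Gbp2 (1.32), Tgtp1 (1.41), Gbp4 (1.47), 2210407C18Rik (1.68) and Tap1 (1.71). Tgtp1 is an immunity-related GTPase and the Gbp genes encode guanylate-binding proteins, and reads of both families may be split between near-identical members. Gbp2, at 1386 and 270 CPM in the ATEV libraries against 1.57 and 1.79 CPM in the PBS libraries, also favoured ATEV library 1. So did Tgtp1, Gbp4 and Tap1, while 2210407C18Rik went the other way, with 143 CPM in ATEV library 1 and 316 CPM in ATEV library 2. All these genes were highest in the ATEV libraries, so the distances mostly describe that contrast.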

How the data were processed

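Counts per gene were deposited by the authors for 8 libraries, in 1 table of 42687 genes keyed by Ensembl identifiers. Libraries were made with a stranded mRNA kit (labels' protocols). Programs named in the submitters' processing notes are Cufflinks 2.1.1, bcl2fastq 2.19, TopHat and TopHat2 2.0.11, beside the build mm9. What each did, which counter, strand option and gene models were used is not given in the sources used here. GENCODE M21 supplied symbols for 42250 identifiers, gene classes, exon lengths and overlapping genes. No row lacked a gene identifier.

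Analysis used edgeR 4.0.16 (R 4.3.3): filterByExpr by group (15197 genes kept), TMM scaling, and quasi-likelihood tests on 1 coefficient for each group across the 8 libraries (4 residual degrees of freedom, common biological coefficient of variation 0.226). Tests are two-sided. CPM are TMM-scaled. Alternatives were RLE scaling, no filter, DESeq2 1.42.0, a fit of the 2 groups compared, protein-coding genes alone, the replicate number as a block, and each library left out. Replicate columns were not identical, and the lowest chi-square per gene within a group was 39.0, far above sampling noise. Floors are 3 counts, and intervals from counts cover counting error only. Named genes are the 9 members, up to 6 class I and class II targets, up to 4 of other lists by smallest p, and the 5 nearest in pattern, and other genes named were chosen after their values were seen. The members and lists were chosen with earlier results of these data known. Some alleles and genes of these lists are not reported here.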

Additional observations from a re-analysis of the deposited data

How the results depend on the processing

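Among the alternative values of the members' log2 fold changes, 490 kept their direction and their side of the threshold, 28 turned round, 7 lost a call and 3 gained one. None of those that turned round was called. Members called with ATEVs against PBS numbered 1 to 2 when single libraries were left out, and between DNase-treated and untreated ATEVs 0 to 2. With no filter on low counts, 1 member, Nlrc5, was called in DNase-treated ATEV against PBS. In a fit of the 2 groups alone, 0 members were called in ATEV against NTEV. The cause of these changes was not tested. At these depths, 3 counts or fewer (Ciita outside the ATEV group) allow no comparison.

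Over all genes, the counts called were 788 (ATEV against PBS), 169 (NTEV against PBS), 458 (DNase-treated ATEV against PBS), 181 (ATEV against NTEV), 101 (DNase-treated against untreated ATEV) and 8 (DNase-treated ATEV against NTEV). In that order they were 1454, 773, 1520, 459, 343 and 180 with no filter, and 1637, 983, 1764, 477, 417 and 198 with DESeq2. A fit of the 2 groups compared gave 454 in ATEV against PBS, 51 in ATEV against NTEV, 47 in DNase-treated against untreated ATEV and 2 in DNase-treated ATEV against NTEV. Protein-coding genes alone gave 370 in ATEV against PBS, 1 in NTEV against PBS and 33 in DNase-treated ATEV against PBS. Leaving out single libraries gave 131 to 401, 5 to 28, 11 to 68, 71 to 166, 27 to 99 and 1 to 5, in the order of the first list.

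The replicate numbers are shared by the groups. Deviations of same-numbered libraries correlated at 0.485 to 0.552 between EV groups and at -0.236 to -0.141 between EV groups and PBS, with 2 pairs each. With the replicate number as a block the counts were 1182, 330, 1052, 255, 127 and 24, and the members called stayed at 2, 0, 0, 2, 2 and 0.

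The log2 fold change of Nfya with ATEVs against PBS was 0.0094 with RLE scaling, 0.0049 with no filter, 0.0092 with DESeq2, 0.020 in the 2 groups alone and 0.0011 among protein-coding genes. The lowest and highest values when single libraries were left out are given for differences that turned round. In ATEV against PBS they were -0.054 to 0.050 for Nfya, -0.41 to 0.012 for Nfyc, -0.039 to 0.11 for Rfxank and -0.21 to 0.037 for Rfxap. In NTEV against PBS they were -0.31 to 2.30 for Nlrc5. In ATEV against NTEV they were -0.19 to 0.34 for Creb1, -0.25 to 0.35 for Nfyb and -0.42 to 0.031 for Rfxank. Between DNase-treated and untreated ATEVs they were -0.31 to 0.23 for Creb1 and -0.44 to 0.16 for Nfyb. In DNase-treated ATEV against NTEV they were -0.17 to 0.24 for Creb1, -0.12 to 0.012 for Nfya, -0.27 to 0.085 for Nfyb, -0.23 to 0.12 for Nfyc, -0.015 to 0.57 for Rfxank and -0.34 to 0.0095 for Rfxap.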

Other observations

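Of 16 other NLR genes, the family that NLRC5 and CIITA belong to, 10 were tested and 3 were higher with ATEVs than with PBS, beside 3.52% of all genes. Without the ATEV libraries 9 of the 10 would have passed the filter, all but Naip5. Nod1, a sensor of bacterial peptidoglycan, had 44.5 and 34.7 CPM with ATEVs, 17.8 and 22.5 CPM with DNase-treated ATEVs, 9.60 and 16.0 CPM with NTEVs, and 6.59 and 4.80 CPM with PBS. It was also the 1 NLR gene higher with DNase-treated ATEVs than with PBS (log2 fold change 1.82, edgeR adjusted p = 0.0319), beside 2.16% of all genes called higher. The others were Naip5 (0.874 and 1.39 CPM with ATEVs against 0.0194 and 0.0304 CPM with PBS, 2 PBS counts, ratio 47.8 with a 95% exact counting interval of 12.9 to 401) and Naip6 (3.91 and 4.95 CPM with ATEVs against 0.583 and 0.182 CPM with PBS), whose reads may be split with other Naip copies. The NLR count was 1 without ATEV library 2 or PBS library 1 and 0 without PBS library 2.

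Of 7 other RFX genes 4 were tested and 0 passed edgeR with ATEVs against PBS, while 1 had a p under 0.05 before adjustment and DESeq2 and RLE scaling each called 1. Rfx1 had 51.8 and 47.8 CPM with ATEVs against 35.3 and 31.7 CPM with PBS (edgeR adjusted p = 0.0514). Of 12 CREB family and CRTC genes 0 passed edgeR or DESeq2, and 1 had a p under 0.05 before adjustment. Among 15 coactivators and corepressors 0 passed edgeR with ATEVs against PBS, DESeq2 called 4, and before adjustment 5 had a p under 0.05 on the higher side and 2 on the lower, beside 21.9% of all genes in either direction. Ep300, a histone acetyltransferase, was the 1 of these called with NTEVs against PBS (185.4 and 190.3 CPM with NTEVs against 117 and 119 CPM with PBS, beside 0.704% of all genes called higher, edgeR adjusted p = 0.0426). With ATEVs it had 155 and 147 CPM (adjusted p = 0.115).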
